A study of Drosophila melanogaster with 4 samples.

Results

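The genes described here are 10 *Drosophila melanogaster* genes of protein folding and stress signalling in the endoplasmic reticulum (ER), taken by symbol from a fixed list and followed in the testis transcriptome of 5-day-old males. They are the stress sensors *Ire1*, *PEK* and *Atf6*, the transcription factors *Xbp1* and *crc*, the chaperones *Hsc70-3*, *Gp93* and *Cnx99A*, the foldase *Pdi*, and *Erasp*. All 10 were found among the 13771 genes of the table, with 26 transcripts between them, and all 10 had enough reads to be tested. WT flies were of the Canton S strain, and the mutant flies carried the sws1 allele of *swiss cheese* (*sws*), which encodes a phospholipase of the ER membrane. Each genotype had 2 libraries of total RNA after removal of ribosomal RNA, each made from the pooled testes of several males. The sources used here do not say whether the sws1 stock shares the Canton S background, so the allele and the background cannot be told apart. The comparison asks how the testis transcriptome differs between sws1 and WT, and here it is read for the ER.

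Proteins that enter the secretory pathway fold in the ER, where *Hsc70-3* (the fly BiP), *Gp93* (the fly GRP94) and calnexin hold unfinished chains and protein disulfide isomerase forms their disulfide bonds. When unfolded proteins build up, the unfolded protein response starts from the sensors in the ER membrane. Ire1 cuts a short intron out of the *Xbp1* mRNA so that an active transcription factor is made. PEK, known in mammals as PERK, slows translation by phosphorylating eIF2alpha, which favours translation of *crc*, the fly ATF4. Atf6 is, in mammals, cut in the Golgi to release a transcription factor. Much of this control works through splicing, translation and cleavage of proteins, which counts of reads per gene do not measure.

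The 4 libraries held between 2218335 and 4498060 counts. Levels are given as CPM, the reads of a gene relative to the size of its library, after scaling with the TMM method, and fold changes as sws1 over WT on the log2 scale (log2FC), with the standard error (SE). A gene was called changed when the edgeR quasi-likelihood test gave a Benjamini-Hochberg adjusted p under 0.05 over the 9634 genes tested and the absolute log2FC was above 0.3. The mutated gene *sws* had 662 and 500 counts in the WT libraries and 166 and 179 in the sws1 libraries. After scaling this was 156 and 196 CPM against 66.2 and 78.0 CPM, and *sws* was called lower (log2FC −1.28, SE 0.15, adjusted p = 2.12e-06 by edgeR). Markers of spermatocytes and spermatids were abundant in every library, with summed levels of 2733 to 3725 CPM and 5677 to 8960 CPM. Nothing in the labels says whether the 2 libraries of a genotype came from separate crosses or days, so p-values measure the spread between these libraries only.

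In sws1 testes the chaperones *Hsc70-3* and *Gp93* and the foldase *Pdi* were called higher, between 1.65-fold and 1.998-fold, and *Erasp* was called lower, 7.10-fold. The sensors, the transcription factors and the chaperone *Cnx99A* did not pass the test. Thus 3 of 10 genes were called higher, beside 9.38% of all genes tested, and 1 of 10 was called lower, beside 11.5%. Together the 10 genes took 0.1503% and 0.1508% of the counts of the WT libraries, with Wilson 95% intervals of 0.147 to 0.154% and 0.146 to 0.156%. In the sws1 libraries their share was 0.211% (0.206 to 0.217%) and 0.212% (0.206 to 0.218%). These intervals cover counting error only. The shares were taken of the raw counts, without TMM scaling. After scaling, the 10 genes summed to 1588 and 1589 CPM in WT and to 1994 and 2053 CPM in sws1.

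**Figure D1:**
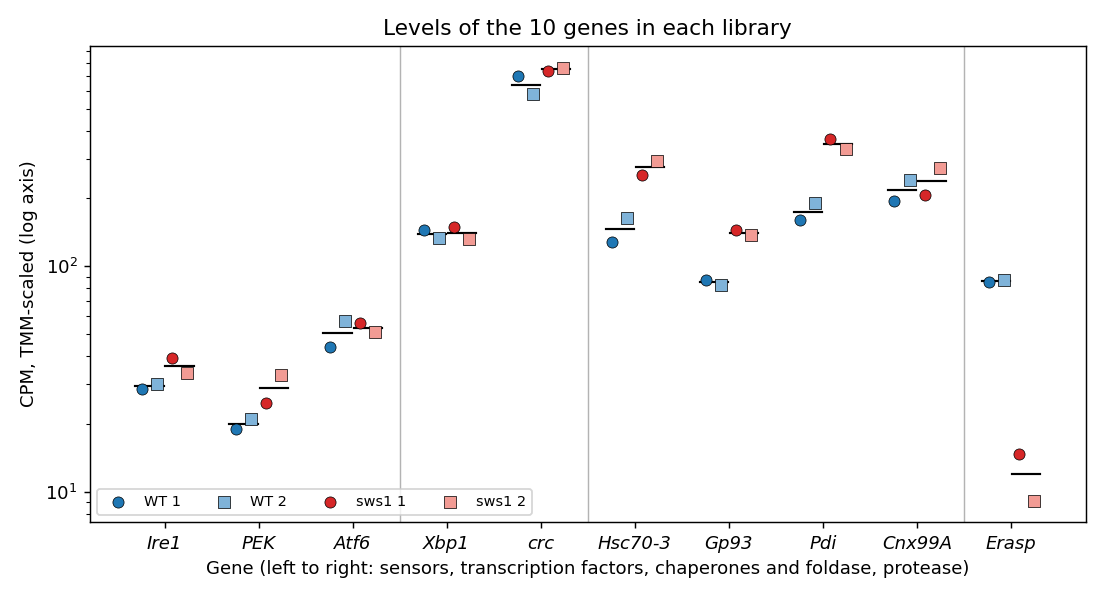
TMM-scaled level (CPM, log axis) of the 10 genes in each of the 4 libraries, with short bars at the mean of each genotype. The sws1 points of *Hsc70-3*, *Gp93* and *Pdi* lie above both WT points, those of *Erasp* lie far below, and those of *Xbp1*, *Atf6* and *Cnx99A* overlap with WT.

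*Hsc70-3* (FBgn0001218, X chromosome, 11801696 to 11807117 in BDGP6) encodes the ER member of the Hsp70 family, which binds unfolded chains and, in its free or bound state, sets the activity of the stress sensors. Its counts were 544 and 420 (WT replicates 1 and 2) against 640 and 674 (sws1 replicates 1 and 2), although the sws1 libraries were the shallower ones. This gave 128 and 164 CPM in WT against 255 and 294 in sws1. Both sws1 libraries thus stood above both WT libraries. On average it went from 146 ± 25.8 to 275 ± 27.2 CPM (SD, n = 2 each), which is a log2FC of 0.92 (SE 0.13, adjusted p = 4.50e-05 by edgeR).

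*Pdi* (FBgn0286818, 3L, 15137738 to 15142840), the protein disulfide isomerase, had 160 and 190 CPM in WT against 367 and 330 in sws1. The genotypes did not overlap, and the lower sws1 library was above the higher WT library by more than the gap within either genotype. On average it went from 175 ± 21.5 to 348 ± 25.98 CPM (SD, n = 2 each), which is a log2FC of 0.999 (SE 0.12, adjusted p = 2.41e-06 by edgeR). The span of *Pdi* holds the antisense RNA *asRNA:CR45396*, with 501 exon bases in common, and the strand setting of the counting is not given in the sources used here.

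*Gp93* (FBgn0039562, 3R, 27948711 to 27952151) encodes the Hsp90 chaperone of the ER lumen, which folds a narrower set of secreted and membrane proteins. It had 87.4 and 83.0 CPM in WT against 144 and 138 in sws1. Replicates lay close together in both genotypes, and the genotypes were well apart. The log2FC was 0.73 (SE 0.14, adjusted p = 0.000508 by edgeR). Its 3′ end shares 101 exon bases with *CG4951* on the opposite strand, which had 21.0 ± 0.156 CPM in WT against 19.3 ± 2.63 CPM in sws1 (SD, n = 2 each) and was not called.

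*Cnx99A* (FBgn0015622, 3R, 29315254 to 29319644) encodes calnexin, the membrane-bound lectin chaperone that holds glycoproteins through their trimmed sugar chains. Its level was 194 and 240 CPM in WT against 207 and 272 in sws1. The libraries overlapped, and the replicates of each genotype differed more than the genotypes did. The log2FC of 0.15 (SE 0.14) did not pass the test (adjusted p = 0.515, edgeR).

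Because all these genes are counted in the same library, their ratios do not depend on the scaling. The count of *Hsc70-3* over that of *Cnx99A* was 0.659 and 0.684 in WT and 1.23 and 1.08 in sws1. For *Pdi* over *Cnx99A* the ratio was 0.823 and 0.792 in WT and 1.77 and 1.21 in sws1. For *Gp93* over *Cnx99A* it was 0.450 and 0.345 in WT and 0.698 and 0.506 in sws1. Each of the 3 ratios was higher in both sws1 libraries than in either WT library. In contrast, *Pdi* over *Hsc70-3* was 1.25 and 1.16 in WT and 1.44 and 1.12 in sws1, and these ranges overlapped. *Gp93* over *Hsc70-3* also overlapped, with 0.684 and 0.505 in WT and 0.566 and 0.469 in sws1. These ratios were not tested.

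The genes next to the called chaperones were looked at for signs of a change that covers a wider region. *CkIIbeta*, 109 bases from *Hsc70-3*, had a log2FC of 0.11, and *CG1578*, on the other side, had one of −0.24. *CG12316* and *CG32147* on either side of *Pdi* had a log2FC of −0.23 and 0.64, the latter from 10 to 24 counts a library. *mfrn*, beside *Gp93*, had one of −0.15, and *Nep7* had 12 counts or fewer in each library and was not tested. None of the 5 tested neighbours was called, and their adjusted p lay between 0.249 and 0.643 (edgeR).

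In WT the sensors had the lowest CPM of the 10 genes, whereas in sws1 the CPM of *Erasp* was below theirs. Per kb of exon, however, the sws1 mean of *Erasp* (12.0) was above those of *Ire1* (9.01) and *PEK* (5.94). On that scale the sws1 libraries of *Erasp* and *Ire1* overlapped. *Ire1* (FBgn0261984, 3R, 19853908 to 19861291), the kinase and RNase that splices *Xbp1*, had 122 and 77 counts in WT against 98 and 77 in sws1. Its level was 28.7 and 30.1 CPM in WT against 39.1 and 33.6 in sws1, without overlap. The log2FC of 0.31 (SE 0.19) did not pass the test (adjusted p = 0.276, edgeR). *Ire1* shares 496 exon bases with *MICU3* on the opposite strand, which had a log2FC of 0.30 and was not called either.

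*PEK* (FBgn0037327, 3R, 5458563 to 5464753), the eIF2alpha kinase of the ER membrane, had 81 and 54 counts in WT against 62 and 76 in sws1. In CPM this was 19.0 and 21.1 against 24.7 and 33.1, again without overlap. The log2FC was 0.53 (SE 0.22), with an adjusted p of 0.0877 (edgeR). Among the 6 genes not called, *PEK* had the largest log2FC, and it was called only when sws1 replicate 1 was left out (log2FC 0.73, adjusted p = 0.0431).

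*Atf6* (FBgn0033010, 2R, 5144733 to 5154756), the membrane-tethered transcription factor, had 43.7 and 57.5 CPM in WT against 55.9 and 51.0 in sws1. The sws1 libraries fell between the WT libraries. The log2FC was 0.10 (SE 0.18, adjusted p = 0.752 by edgeR).

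*Xbp1* (FBgn0021872, 2R, 21143545 to 21145750), the transcription factor downstream of Ire1, had 145 and 134 CPM in WT against 150 and 132 in sws1. The genotypes overlapped fully. The log2FC was 0.01 (SE 0.13, adjusted p = 0.962 by edgeR), and its sign depended on the scaling and on the library left out.

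The annotation holds both forms of the *Xbp1* mRNA, which makes the counts by transcript of interest. Xbp1-RE lacks 23 bases, positions 21144506 to 21144528 of 2R in BDGP6, that Xbp1-RD retains, and apart from 4 bases at the 5′ end the 2115 other bases are common to both. The coding sequence is 307 codons long in Xbp1-RD and 498 codons in Xbp1-RE, without the stop codon. Xbp1-RD had 339 and 225 counts in WT against 196 and 199 in sws1. Xbp1-RE had 277 and 118 counts in WT against 180 and 103 in sws1. Its share of the *Xbp1* counts was 45.0% (Wilson 95% interval 41.1 to 48.9) and 34.4% (29.6 to 39.6) in WT, and 47.9% (42.9 to 52.9) and 34.1% (29 to 39.6) in sws1. The share thus differed more between the replicates of a genotype than between genotypes. As nearly all bases are common, most reads fit both transcripts, and how the counting divided such reads is not given, so the share is no measure of how much *Xbp1* was spliced.

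**Figure D2:**
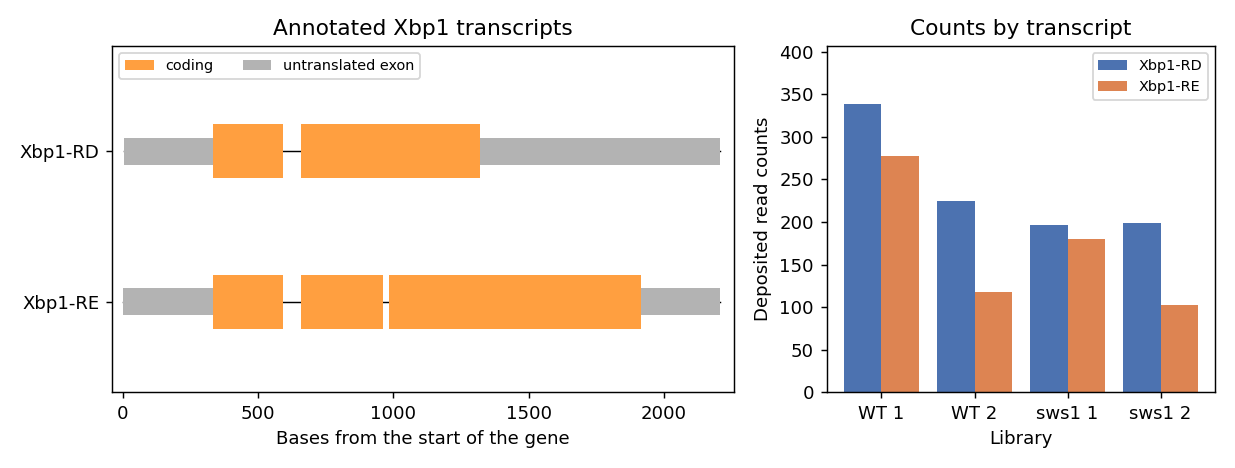
Left, exons and coding parts of both annotated *Xbp1* transcripts against the distance in bases from the start of the gene, to scale. Right, deposited read counts of each transcript in the 4 libraries: Xbp1-RE took 34.1 to 47.9% of the counts, with both extremes in sws1.

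*crc* (FBgn0000370, 2L, 21310866 to 21319527) was the most abundant of the 10, with 698 and 581 CPM in WT against 736 and 761 in sws1. Both sws1 libraries were above both WT libraries, but WT replicate 1 came close to sws1 replicate 1. The log2FC of 0.22 (SE 0.11) did not pass either threshold (adjusted p = 0.140, edgeR). *crc* shares 2515 exon bases with *CG46314* on the same strand, a gene not analysed here, and reads from those exons cannot be assigned to either gene. Transcript crc-RA held between 80.7 and 93.0% of the *crc* counts in each library.

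*Erasp* (FBgn0050090, 2R, 15689826 to 15691014) carries serine protease synonyms in the RefSeq gene table, and no annotation used here ties it to folding in the ER. It is described with the others because it was listed with them. The study had picked it from these libraries for a further assay, so its change here is not independent evidence. It had 361 and 222 counts in WT against 37 and 21 in sws1, that is 84.8 and 86.9 CPM against 14.8 and 9.15 CPM. WT replicates were nearly equal, and both sws1 libraries were far lower. The log2FC was −2.83 (SE 0.21, adjusted p = 1.86e-09 by edgeR), and *Erasp* was the only one of the 10 called lower. Its tested neighbour *Cep89*, 841 bases away on the opposite strand, had a log2FC of −0.39 and was not called (adjusted p = 0.182, edgeR). Markers of spermatids moved in the same direction, with 5 of 6 called lower, beside 11.5% of all genes tested. Their log2FC ran from −1.89 (*ProtB*) to −0.30 (*Mst77F*). Their part in the change of *Erasp* was not tested. In bulk testes, fewer cells of a type and less RNA per cell cannot be told apart.

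Levels of different genes can be compared only per length of exon, taken here over all exons of a gene together. For *crc* this length was 3423 bases, while crc-RA, which held most of its counts, has 1905. Reads from the exons that *crc* shares with *CG46314* may be included, so its level per kb is approximate. In WT, *crc* led with 187 ± 24.2 CPM per kb (SD, n = 2), ahead of *Erasp* with 86.0 ± 1.45, *Cnx99A* with 77.7 ± 11.7 and *Pdi* with 75.2 ± 9.24. *Erasp* and *Cnx99A* overlapped between their WT libraries, as did *Cnx99A* and *Pdi*. *Xbp1* followed with 65.1 ± 3.47 CPM per kb, then *Hsc70-3* with 40.7 ± 7.20 and *Gp93* with 30.0 ± 1.11. The sensors *Atf6*, *Ire1* and *PEK* came last with 12.4 ± 2.39, 7.29 ± 0.257 and 4.12 ± 0.305 CPM per kb. No other neighbours in this order overlapped between their WT libraries. In sws1, *Pdi* moved from place 4 to place 2 (150 CPM per kb), *Hsc70-3* from 6 to 4 (76.5 CPM per kb), and *Erasp* from 2 to 8 (12.0 CPM per kb). The sws1 libraries of *Hsc70-3* (71.2 and 81.9) overlapped those of *Cnx99A* in place 3 (74.1 and 97.5). Those of *Erasp* (14.8 and 9.16) enclosed those of *Atf6* in place 7 (13.7 and 12.5). The libraries thus did not separate these places.

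Of the 10 genes, 6 had both sws1 libraries above both WT libraries, which was true of 31.3% of all genes tested, and 1 had both below, which was true of 28.9%. The genes that did not overlap and yet were not called were *Ire1*, *PEK* and *crc*. For all 10 genes the median log2FC was 0.27, beside 0.02 for all genes tested.

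The calls of the 4 genes held when each library was left out in turn, with the lone library of a genotype assumed to vary like the others. The log2FC then ranged from 0.74 to 1.09 for *Hsc70-3*, from 0.87 to 1.11 for *Pdi*, from 0.68 to 0.77 for *Gp93* and from −3.22 to −2.54 for *Erasp*. Without summing, 0 of the 19 tested transcripts of the 10 genes passed the threshold by edgeR, where 0 of all 14159 transcripts passed. The unadjusted p was under 0.05 by edgeR for 6 of the 19, beside 2413 of all 14159 transcripts. The 6 belonged to *Erasp*, *Gp93*, *Pdi*, *Hsc70-3* (2 transcripts) and *crc*. Reads of a gene were divided unevenly over its transcripts between replicates. For example, Hsc70-3-RA took 25.2 and 45.2% of the *Hsc70-3* counts in the WT libraries, and Atf6-RA had 30 and 76 counts in WT against 60 and 0 in sws1.

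**Figure D3:**
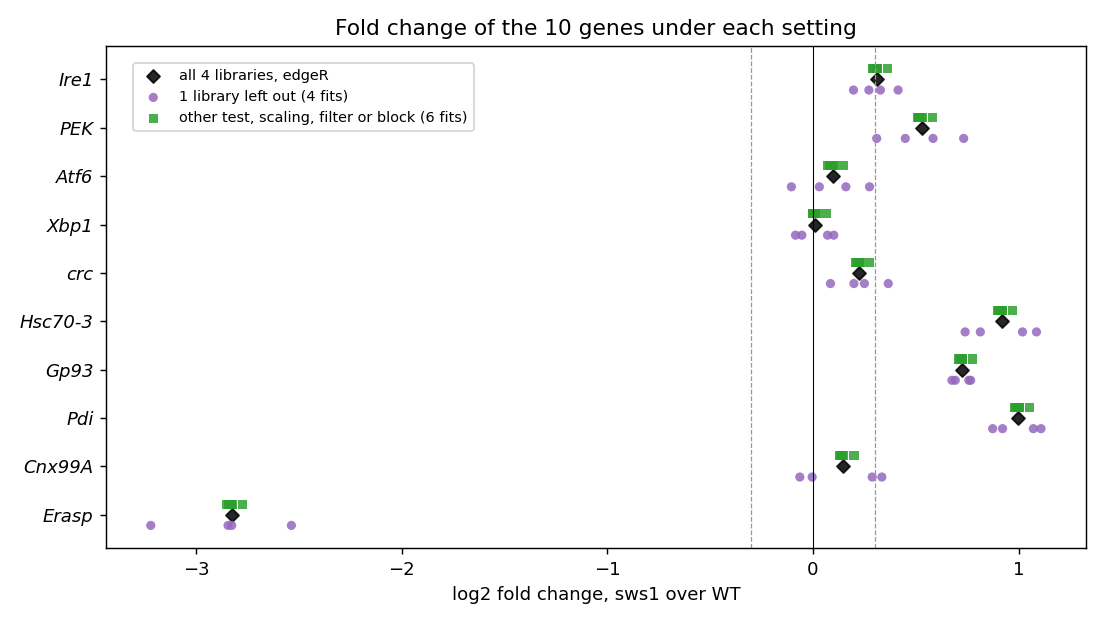
log2FC of the 10 genes (sws1 over WT) with all 4 libraries, with 1 library left out and with another test, scaling, filter or replicate block. Dashed lines mark the threshold of 0.3 either way. *Hsc70-3*, *Gp93*, *Pdi* and *Erasp* stayed beyond it in every fit shown, and *Xbp1*, *Atf6* and *Cnx99A* fell on both sides of 0.

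The wider machinery was read from 8 lists for ER folding, stress signalling and targets of crc, whose genes do not all encode ER proteins. They held 71 further genes in all, of which 70 were tested. Of these, 11 were called higher (15.7%, beside 9.38% of all genes) and 7 lower (10%, beside 11.5%), and their median log2FC was 0.16, beside 0.02. The list of ER chaperones and cochaperones had 4 of 8 genes called higher and 0 lower, *Hsc70-3* and *Gp93* among them. The others were *Grp170*, an Hsp70-like exchange factor of BiP, with 72.9 and 81.0 CPM in WT against 127 and 109 in sws1 (log2FC 0.62, adjusted p = 0.00362), and *shv*, the fly counterpart of the J-domain protein DNAJB11 (log2FC 0.57, adjusted p = 0.0216). The cochaperones *P58IPK* (log2FC 0.15) and *Sil1* (0.38) were not called. The call of *Grp170* was lost without sws1 replicate 1 (adjusted p = 0.0553), and that of *shv* with DESeq2 (0.295) and without WT replicate 1 (0.124), WT replicate 2 (0.0509) or sws1 replicate 1 (0.205).

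Of the 9 genes for lectin chaperones and glucose trimming, 2 were called higher (22.2%, beside 9.38% of all genes). All 9 had a log2FC above 0, as did 5002 of the 9634 genes tested. *Calr*, the soluble lectin calreticulin, had 196 and 208 CPM in WT against 303 and 270 in sws1 (log2FC 0.50, adjusted p = 0.00297). *Uggt*, which puts glucose back on misfolded glycoproteins, had a log2FC of 0.71 (adjusted p = 0.00636). Without WT replicate 1 the log2FC of *Uggt* was 0.43 and the call was lost (adjusted p = 0.147), as it was with DESeq2 (0.0593). The soluble *Calr* was thus called and the membrane-bound calnexins *Cnx99A* and *Cnx14D* (log2FC 0.12) were not, a difference that was not itself tested.

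In the list of disulfide formation and the PDI family, 4 of 10 tested genes were called higher (40%, beside 9.38% of all genes) and 0 lower. Besides *Pdi* these were *CaBP1* (log2FC 0.63, adjusted p = 0.00460), *ERp44* (0.59, adjusted p = 0.0384) and *Qsox1*, a sulfhydryl oxidase (0.42, adjusted p = 0.00654). The oxidase *Ero1L*, which recharges PDI, had 53.1 ± 1.30 CPM in WT against 53.3 ± 7.57 CPM in sws1 (SD, n = 2 each), a log2FC of 0.01. *ERp60* (log2FC 0.31, adjusted p = 0.123) and *prtp* (0.19, adjusted p = 0.321), of the PDI family, were not called. Without WT replicate 1 the calls of *CaBP1* (adjusted p = 0.109), *ERp44* (0.324) and *Qsox1* (0.0540) were lost, and without sws1 replicate 1 those of *ERp44* (0.344) and *Qsox1* (0.0695). The log2FC of *ERp44* was then 0.38 and 0.35. DESeq2 did not call *CaBP1* (0.0593) or *ERp44* (0.377).

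ER-associated degradation returns misfolded proteins to the cytosol for the proteasome. Of its 11 genes, 0 were called higher and 3 lower (27.3%, beside 11.5% of all genes), with a median log2FC of −0.19. *Ufd1*, a cofactor of the extracting ATPase TER94, had 88.6 and 111 CPM in WT against 69.4 and 57.97 in sws1 (log2FC −0.64, adjusted p = 0.00619). *Der-1* (log2FC −0.45, adjusted p = 0.0288) and *Herp* (−0.41, adjusted p = 0.0277) belong to the membrane complex that recognises the substrates. *TER94* itself had a log2FC of 0.03. These lower calls depended on the test, the scaling and the libraries used. With DESeq2 or without sws1 replicate 2 there were 0 of them, and with upper-quartile scaling, without WT replicate 1 or without sws1 replicate 1 there was 1. The call of *Herp* was lost in 3 of the 4 fits with 1 library left out, where its log2FC went down to −0.32 (adjusted p = 0.240).

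Of the 14 genes for stress sensing and signalling, 1 was called higher and 1 lower. Each was 7.14%, near the shares of all genes (9.38% higher and 11.5% lower). *bsk*, the Jun kinase that acts downstream of Ire1 among other inputs, had a log2FC of 0.55 (adjusted p = 0.0169), a call lost with DESeq2 (0.214) and in 3 of the 4 fits with 1 library left out, without WT replicate 1 (0.0580), WT replicate 2 (0.0843) or sws1 replicate 2 (0.125). *BI-1*, an ER membrane protein that restrains Ire1 in mammals, fell from 1155 and 1088 CPM in WT to 812 and 810 CPM in sws1 (log2FC −0.47, adjusted p = 0.00119). *PPP1R15*, the phosphatase subunit that reverses phosphorylation of eIF2alpha, had a log2FC of −0.11 and *eIF2alpha* one of −0.04. Of 8 targets of crc, 0 were called higher and 1 lower (12.5%, beside 11.5% of all genes). The latter was *AsnS*, asparagine synthetase, with 119 and 77 counts in WT against 31 and 27 in sws1 (log2FC −1.26, adjusted p = 0.000363). *Thor*, the fly 4E-BP, had a log2FC of −0.29 (adjusted p = 0.264).

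At the entry to the ER, 1 of 14 genes for translocation and signal peptide cleavage was called higher and 2 lower. These were 7.14% and 14.3%, near the shares of all genes (9.38% and 11.5%). *Sec61alpha*, the channel subunit, had a log2FC of 0.40 (adjusted p = 0.0301), and the small subunits *Sec61gamma* and *Sec61beta* one of −0.46 (adjusted p = 0.00648) and −0.32 (adjusted p = 0.0764). The call of *Sec61alpha* was lost with DESeq2 (adjusted p = 0.188), without WT replicate 2 (0.198) and without sws1 replicate 1 (log2FC 0.24, adjusted p = 0.318). *Spase22-23*, a signal peptidase subunit, had a log2FC of −0.36 (adjusted p = 0.0360) and was called in 0 of the 4 fits with 1 library left out (adjusted p 0.0693 to 0.198), nor with DESeq2 or upper-quartile scaling. The oligosaccharyltransferase attaches sugar chains to new proteins, and 2 of its 7 genes were called higher (28.6%, beside 9.38% of all genes). They were *CG33303*, the fly ribophorin I (log2FC 0.82, adjusted p = 0.000299), and the catalytic subunit *Stt3B* (0.66, adjusted p = 0.00284). All p-values for these lists are from edgeR over all genes, and 7 of the 18 called genes overlap another annotated gene, *Spase22-23* among them with *Acp95EF*. *AsnS* (with *chb*), *CG33303* (with *rho-5*) and *Calr* (with *sisRNA:CR46357*) overlap a gene on the same strand, as does *Spase22-23*. How many exon bases these genes share was not examined.

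**Figure D4:**
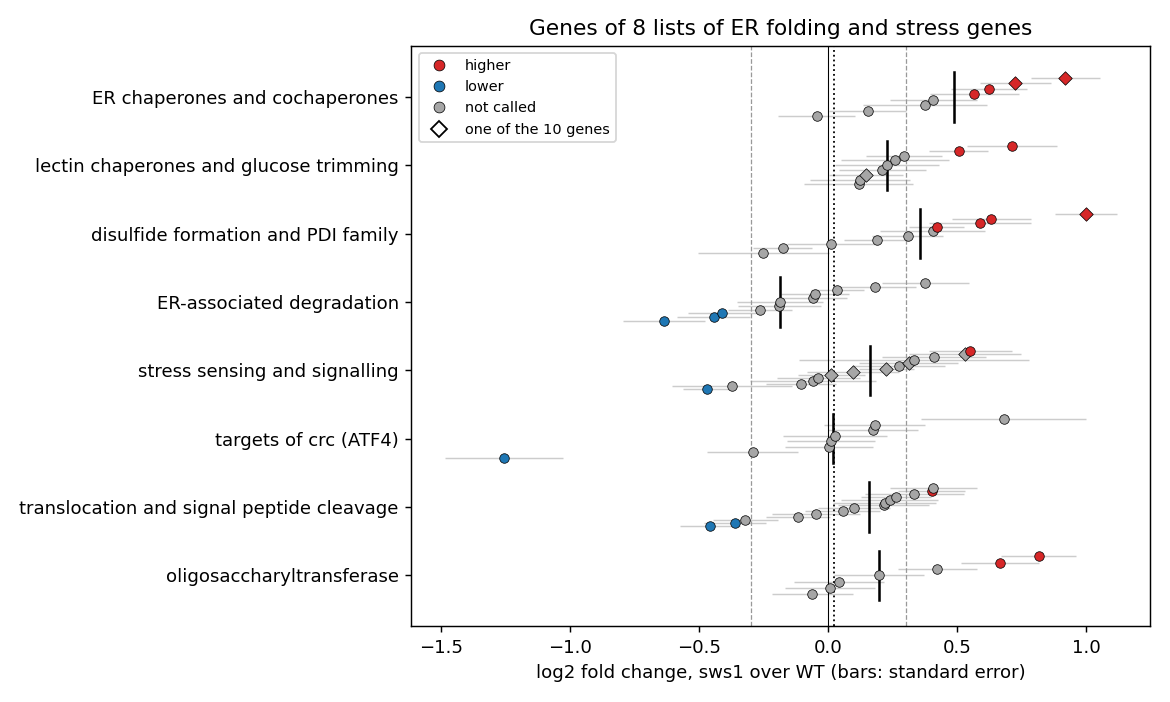
log2FC (sws1 over WT) of every tested gene in the 8 lists, with its standard error. Diamonds are members of the 10 genes, vertical bars the median of a list, the dotted line the median of all genes (0.02) and dashed lines the threshold of 0.3. The list medians run from −0.19 for degradation to 0.49 for chaperones and cochaperones.

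These counts changed with the library left out and with the test or scaling. Of the 18 called genes, 6 kept their call with each library left out in turn, namely *Calr*, *CG33303*, *Stt3B*, *BI-1*, *AsnS* and *Sec61gamma*. Without sws1 replicate 1, 6 of the 70 genes were called higher, all of them among the 11, and *Grp170*, *shv*, *ERp44*, *Qsox1* and *Sec61alpha* were lost. Without WT replicate 1 there were also 6, of which 5 were among the 11. For genes called lower, the count fell from 7 to 3 without sws1 replicate 2 and to 4 without WT replicate 1 or sws1 replicate 1. DESeq2 called 5 higher and 3 lower, all among those of edgeR. With upper-quartile scaling there were 12 higher and 4 lower.

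Several marker lists of secretory and somatic tissue also differed between genotypes. Their counts stand beside 9.38% of all genes tested called higher and 11.5% called lower. The 19 accessory gland markers summed to 72.2 to 83.8 CPM in WT, 1833 CPM in sws1 replicate 1 and 736 CPM in sws1 replicate 2, and 9 of the 17 tested were called higher. The ejaculatory duct and bulb markers, which share *Dup99B* with the accessory gland list, summed to 93.5 to 96.3 CPM in WT against 525 to 546 CPM in sws1, with 5 of 5 tested called higher and *EbpII* at 1 count or none in each library. Cyst cell markers summed to 136 to 140 CPM in WT against 209 to 228 CPM in sws1, with 3 of 5 called higher. Fat body markers summed to 2578 to 2950 CPM in WT against 5982 to 6698 CPM in sws1, with 2 of 6 tested called higher. These were *Tsf1*, the largest part of the sum, and *apolpp*, while *Yp1* (log2FC −0.12), *Yp2* (−0.07), *Yp3* (0.02) and *Lsp2* were not called and *Fbp1* had at most 1 count in any library. For muscle 3 of 8 tested markers were called higher (566 to 589 CPM against 715 to 775 CPM), and for hemocytes 1 of 5 (249 to 296 CPM against 303 to 305 CPM). The hemocyte markers did not move as one, with a median log2FC of 0.03. Of these *crq* was called (0.38), and *NimC1* had a log2FC of −0.75 and was not called. Among germ cell markers, 3 of 8 for spermatocytes, 5 of 6 for spermatids and 1 of 6 for spermatogonia and early germ cells were called lower. The spermatocyte list did not move as one, with a median log2FC of −0.03 and 3 of 8 above 0, *Rbp4* (0.44) among them. The largest part of its sum was *betaTub85D* (log2FC −0.44).

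The accessory gland sum was 2.49 times higher in sws1 replicate 1 than in sws1 replicate 2. It was above WT in both. *Hsc70-3*, *Gp93* and *Pdi* differed between the sws1 libraries by 1.15-fold at most, with *Hsc70-3* higher in replicate 2 and *Gp93* and *Pdi* higher in replicate 1. In sws1 replicates 1 and 2, the duct and bulb markers summed to 546 and 525 CPM and the cyst cell markers to 209 and 228 CPM. Fat body markers summed to 6698 and 5982 CPM there, and muscle markers to 775 and 715 CPM. Of the 11 further genes called higher, 9 were higher in sws1 replicate 1 than in replicate 2. The same share was not taken over all genes tested, so this count has no background to be read against. The part of the accessory gland, duct and bulb, cyst cell, fat body and muscle markers in the rise of the chaperones was not tested.

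**Figure D5:**
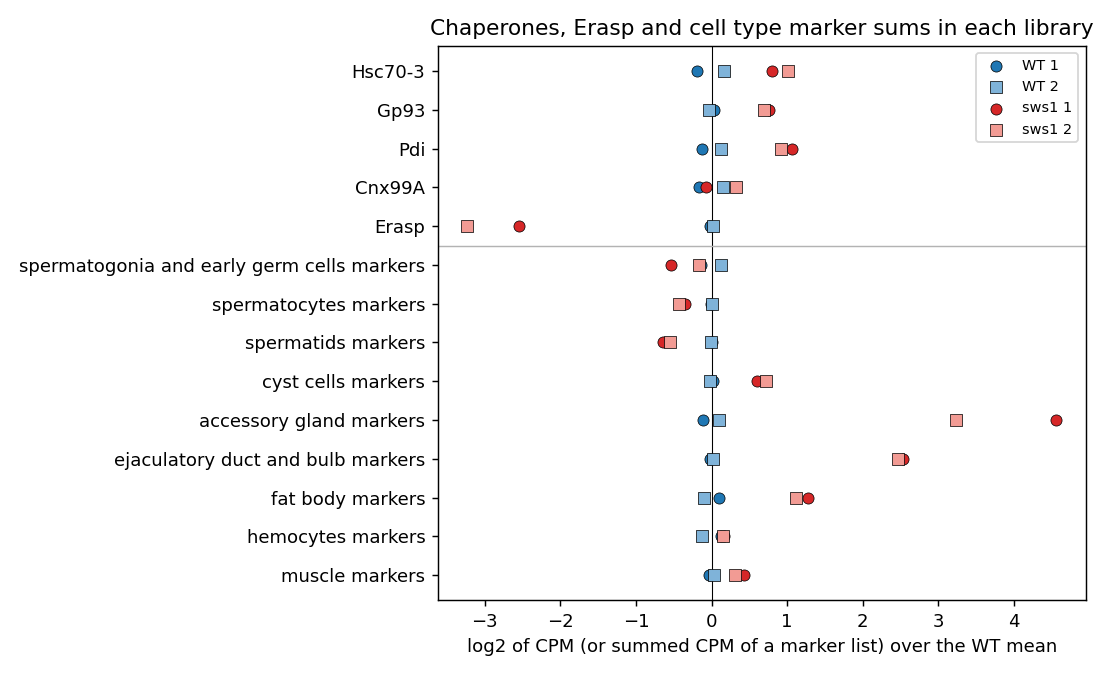
log2 of the level in each library over the WT mean, for 5 of the 10 genes (CPM) and for the summed CPM of 9 marker lists. The accessory gland sum is above WT in both sws1 replicates and far apart between them, and *Hsc70-3*, *Gp93* and *Pdi* are above WT and close together.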

How the data were processed

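Per the labels and the study's methods, the authors used Trimmomatic for trimming, HISAT2 for mapping to the *Drosophila* genome and HTSeq for counting on annotated transcripts. The deposited values are these raw counts, one column per library. The build, the strand setting and the treatment of reads that fit several transcripts are not given in the sources used here. Transcripts were matched by FlyBase identifier to the BDGP6.54 annotation (Ensembl release 115), the source of all coordinates. Of 29939 transcripts, 29929 matched, and the other 10, with 26 to 44 counts a library, were left out. Counts were summed per gene, filtered with filterByExpr, scaled by TMM and compared with genotype as the only term in edgeR 4.0.16 (R 4.3.3), robust quasi-likelihood test. The thresholds are those of the study, with the adjusted p. Each SE was taken as the size of the log2FC over the root of the F statistic. Confidence intervals are Wilson 95%. Simulated counts were used to check that the test recovers the size of known fold changes. They were drawn with the same spread for all genes, so they do not measure false calls in these libraries.

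Replicates were not duplicates, as their chi-square per degree of freedom was 3.36 in WT and 3.99 in sws1. The members and lists were chosen with earlier results of these data known. The genes named are the 10, *sws*, up to 4 called genes each way of each list, genes overlapping the 10 and the nearest genes of those called, while other list genes were named for contrast after their values were seen. Likeness of protein sequences was not examined. The alternatives were DESeq2 1.42.0, other scalings, filters and fold thresholds, the replicate block, transcripts as the unit and leaving out each library. Batches are not named in the labels.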

Additional observations from a re-analysis of the deposited data

How the results depend on the processing

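Among the 10 genes, the 3 called higher and the 1 called lower kept their calls with DESeq2, under both other scalings, with looser or stricter filters, with the replicate block and without any 1 library. With each library left out, the number called higher ranged from 3 to 4 and the number called lower was 1. An absolute log2FC above 1 left 0 higher and 1 lower, since *Pdi*, *Hsc70-3* and *Gp93* lie just under or below that line. With transcripts as the unit, edgeR called 0 members, 0 further list genes and 0 of all genes in either direction. The unadjusted p by edgeR was under 0.05 for 2413 of 14159 transcripts. The smallest adjusted p there was 0.0734.

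Of the 70 further list genes, 11 were called higher and 7 lower. DESeq2 gave 5 and 3, upper-quartile factors left 4 lower, and an absolute log2FC above 1 left 0 and 1. Leaving out each library gave 6 to 11 higher and 3 to 5 lower. Of all genes, 904 were called higher and 1109 lower, against 363 and 631 with DESeq2 and 372 and 221 above an absolute log2FC of 1. Leaving out each library gave 635 to 837 higher and 759 to 1068 lower. The cause of these shifts was not tested.

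The replicate numbers did not pair the libraries (correlation of deviations −0.013 over genes), and the replicate block gave 3 and 1 of the members, 11 and 7 of the further genes, and 952 and 1152 of all genes. *ERp44* had an adjusted p of 0.0598 in that fit. The fewest counts a library among the members were 21 and 37 for *Erasp* in sws1, 54 to 81 for *PEK* and 77 to 122 for *Ire1*, which limits their precision.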
